A study of Mus musculus with 48 samples.

Results

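The comparison described here is the effect of PPARγ knockdown (PPARγ KD) on gene expression in 3T3-L1 cells on day 1 of the rosiglitazone phase of differentiation. Its members are all 24613 probes of the array, which carry 18991 target names, read on 6 of the 48 arrays of the series: 3 from cells given control siRNA and 3 from cells given PPARγ siRNA, taken as pairs by replicate number. 3T3-L1 is a clonal mouse preadipocyte line that turns into fat cells under hormones, so the 3 biological replicates are separate cultures of 1 line and carry no variation between animals. In the PPARγ KD, cells received a SMARTpool of siRNAs against PPARγ, and control cells a siCONTROL pool without a target, both at 50 nM and both before differentiation began. Both groups were then treated for 48 h with 0.5 mM IBMX and 0.25 µM dexamethasone. For the next 48 h they received 5 µg/ml insulin and 1 µM rosiglitazone. Day 0 is the start of the rosiglitazone treatment, so that the day 1 cells had been in insulin and rosiglitazone for 1 day. The arrays read RNA of whole cultures, in which fewer cells of a type and less RNA per cell cannot be told apart.

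PPARγ is a nuclear receptor that fatty acids and thiazolidinediones such as rosiglitazone activate. It binds DNA together with the retinoid X receptor (RXR), at a pair of AGGTCA-like cores that lie close together, and recruits coactivators to genes of lipid storage. In preadipocytes its own gene is switched on by the C/EBP factors that the hormone cocktail induces, and PPARγ and C/EBPα then maintain each other's expression in the fat cell.

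For 2 genes whose transcripts are followed here, Sncg (γ-synuclein) and Pim3 (a serine/threonine kinase), the study cloned a nearby binding region into a reporter and altered 2 bases of an element that resembles the binding motif of PPARγ and RXR. The elements are shown because both genes fell in the PPARγ KD at day 1. The altered bases are in capitals, and positions count from 1 at the 5′ end of the 39 bases given. Their genome positions were not used here.
Sncg element as cloned: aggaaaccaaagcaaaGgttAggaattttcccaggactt
Sncg element altered (G17C, A21C): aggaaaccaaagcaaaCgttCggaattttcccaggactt
Pim3 element as cloned: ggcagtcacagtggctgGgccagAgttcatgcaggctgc
Pim3 element altered (G18T, A24T): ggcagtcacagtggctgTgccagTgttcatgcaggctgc

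The 250 bases before the annotated start were also read for genes at the top of the day 1 changes: Cidec (the first listed of its 2 starts), Adipoq, Plin1 and Adig among those that fell, and Ly6c1 (also the first of 2) among those that rose. The sequences are from RefSeq on build GRCm38.p6 and are written 5′ to 3′ on the gene's strand. Capitals mark matches to AGGTCA or to the paired elements AGGNCANAGGNCA and GGGNCANAGGNCA, searched on both strands.
Cidec, start 1, chr6:113435761-113436010, minus strand: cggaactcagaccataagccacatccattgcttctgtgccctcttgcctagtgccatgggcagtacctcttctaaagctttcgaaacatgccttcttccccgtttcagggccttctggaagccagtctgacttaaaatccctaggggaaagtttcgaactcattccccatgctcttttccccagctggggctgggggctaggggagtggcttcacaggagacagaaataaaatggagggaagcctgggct
Adipoq, chr16:23146286-23146535, plus strand: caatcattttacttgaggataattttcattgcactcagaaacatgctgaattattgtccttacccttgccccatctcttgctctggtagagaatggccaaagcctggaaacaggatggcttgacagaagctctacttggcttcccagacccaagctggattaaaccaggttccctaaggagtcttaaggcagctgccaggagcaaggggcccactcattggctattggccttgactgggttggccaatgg
Plin1, chr7:79732777-79733026, minus strand: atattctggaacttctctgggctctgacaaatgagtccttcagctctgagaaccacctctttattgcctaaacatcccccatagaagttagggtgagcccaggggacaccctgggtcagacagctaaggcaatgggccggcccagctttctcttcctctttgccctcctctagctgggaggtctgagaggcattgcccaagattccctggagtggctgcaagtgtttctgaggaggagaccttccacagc
Adig, chr2:158502362-158502611, plus strand: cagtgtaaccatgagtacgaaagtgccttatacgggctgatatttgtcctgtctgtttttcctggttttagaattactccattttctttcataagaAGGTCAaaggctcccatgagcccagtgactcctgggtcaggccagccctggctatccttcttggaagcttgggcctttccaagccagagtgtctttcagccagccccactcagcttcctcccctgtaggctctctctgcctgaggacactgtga
Ly6c1, start 1, chr15:75048838-75049087, minus strand: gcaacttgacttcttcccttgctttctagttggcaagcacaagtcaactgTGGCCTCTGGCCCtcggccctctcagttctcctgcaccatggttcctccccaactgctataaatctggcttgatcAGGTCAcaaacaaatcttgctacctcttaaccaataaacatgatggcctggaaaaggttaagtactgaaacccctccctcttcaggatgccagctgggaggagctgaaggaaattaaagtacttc

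The windows of Cidec, Adipoq and Plin1, genes with some of the deepest falls, held neither pattern. That of Adig had an AGGTCA 154 bases before the start. The window of Ly6c1, the gene that rose most, held an AGGTCA at 125 bases and a paired element at 200 bases, the latter on the other strand, whereas the window of its second start held neither. Over all 32851 windows of 27025 symbols, 14% held an AGGTCA, against 13.2% of the 325 windows of genes lower in the PPARγ KD at day 1 and 13.2% of the 310 windows of genes higher. These windows cover 244 of the 336 symbols that were lower and 239 of the 322 that were higher. Adig, which the array names BC054059, is not among them. A paired element was in 0.49% of all windows, in 1 window of the lower genes (Sdhb, a subunit of succinate dehydrogenase) and in 1 of the higher genes (Ly6c1). A match is a description of letters and not a site of binding, and windows of this length leave out distant enhancers.

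On the 6 arrays, 33.6% to 38.5% of the probes were above background (detection p below 0.01), with a median of 33 to 36 beads per probe. Replicate 3 stood apart from replicates 1 and 2 under both siRNAs. Deviations from the group means correlated at 0.887 across 7964 probes between the 2 arrays of replicate 3, and at −0.844 to −0.797 between the replicate 3 array of one siRNA and the replicate 1 and 2 arrays of the other. The replicate number was a block in the fit, and counts are given with and without replicate 3. All levels below are log2 of the normalized intensity of a probe, and all differences are PPARγ KD minus control siRNA on that scale, from 1 limma fit to the 48 arrays. A probe is said to have risen or fallen, or to be called, only where the Bonferroni adjusted p over all probes was at most 0.05.

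At day 1, 716 probes passed the test, and they represent 658 gene symbols. The probes that fell numbered 366 (1.49% of all probes tested), with a median log2 difference of −0.84, and those that rose numbered 350 (1.42%), with a median of 0.82. Large changes were mostly falls: 39 probes fell by more than 4-fold and 2 rose by more than 4-fold, those of Ly6c1 and Il1rl1. Beyond 2-fold there were 135 falls and 106 rises, and beyond 1.5-fold 292 falls and 294 rises. In all 716 the 3 pairs moved the same way. The calls were made on these same arrays, so this agreement is no separate support for them. In 344 of the probes that fell and 320 of those that rose, the 3 arrays of one siRNA did not overlap with those of the other, whereas 3181 of all 24613 probes (12.9%) had groups that did not overlap. With the Benjamini-Hochberg adjustment, 1248 probes (5.07%) were lower and 1310 (5.32%) higher. Without replicate 3 the counts were 302 lower and 253 higher, without replicate 1 they were 128 and 127, and without replicate 2 they were 132 and 126. The share of lower probes among those called was 51.1%, and 43.3% where background was not corrected.

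**Figure D1:**
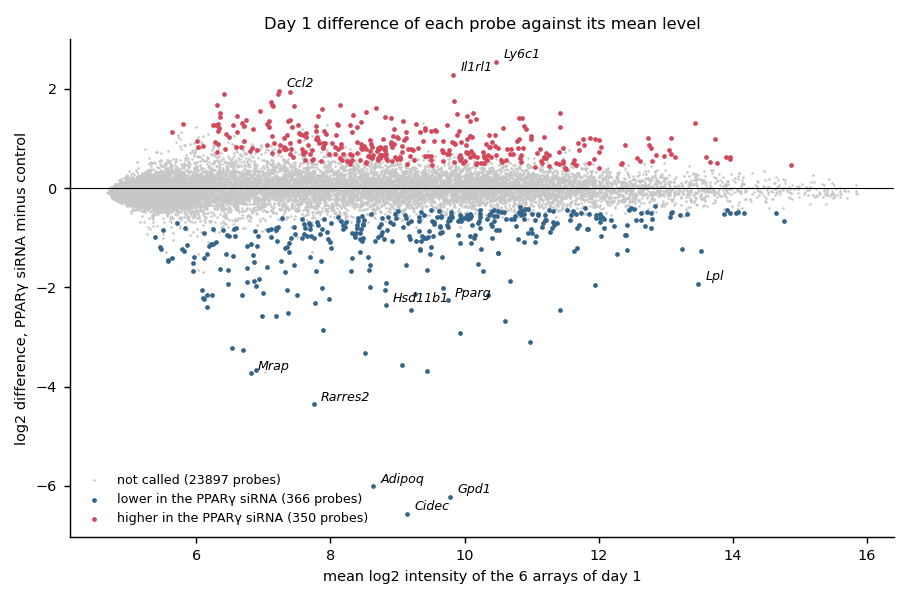
Log2 difference at day 1 (PPARγ siRNA minus control, vertical axis) of each of the 24613 probes against its mean log2 intensity over the 6 arrays of day 1 (horizontal axis). Blue points are the 366 probes called lower, red points the 350 called higher and grey points the rest. The falls reach −6.56 (Cidec) and the rises 2.54 (Ly6c1).

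The targeted transcript itself was lower on every array of the PPARγ KD. The brightest of its 3 probes (6130632) read 10.96, 10.79 and 10.88 under control siRNA and 8.58, 8.35 and 8.92 in the PPARγ KD, in replicates 1 to 3. The difference was −2.26 (SE 0.11, adjusted p = 4.73e-17, limma), and the groups lay more than 1 log2 unit apart. A second probe (1990168) read 7.98, 7.93 and 7.36 under control siRNA against 5.75, 5.49 and 5.58 (difference −2.15, SE 0.18, adjusted p = 1.12e-09) and was above background on none of the PPARγ KD arrays. For such probes a bound is given: the mean of the bright group over the mean, per dim array, of the higher of the lowest signal above background and the probe's own signal. By this rule the second Pparg probe was at least 2.41-fold lower. The third probe (2680603) was above background on none of the 6 arrays and did not pass the test (difference −0.25).

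Among the partners and coregulators of the receptor, 5 of the 17 genes read fell and none rose, with a median difference of −0.12. For comparison, over 18750 gene symbols taken by their brightest probe, 327 fell (1.74%), 312 rose (1.66%) and the median was −0.06. Of these symbols 12343 had differences below 0 and 6407 above, but only 7779 were above background on at least 3 of the 6 arrays. The median was −0.07 over all probes and 0.01 over the 9367 probes detected in this way. The excess below 0 is therefore one of dim probes, and the split is a rough yardstick for lists of detected genes. Besides Pparg, the 4 members of the receptor list that fell were both PGC-1 coactivators, the liver X receptor α and RXRα. Ppargc1a, whose protein PGC-1α coactivates nuclear receptors and drives mitochondrial genes, read 8.38, 8.31 and 9.05 under control siRNA and 6.21, 6.07 and 7.0 in the PPARγ KD (difference −2.15, SE 0.16, adjusted p = 2.13e-11). All control arrays lay above all PPARγ KD arrays, but only 1 of the latter was above background, so that the size of the fall rests partly on dim signals, and the gene's second probe was not called. Ppargc1b, its close relative, fell from 7.31, 7.23 and 7.39 to 5.14, 5.15 and 5.18, at least 1.77-fold, being above background on none of the PPARγ KD arrays. Nr1h3, the sterol sensor liver X receptor α, changed by −1.54 (SE 0.13), with its second probe not called. Rxra, the DNA-binding partner of PPARγ, read 8.90, 8.83 and 8.82 against 8.20, 7.91 and 8.24, a difference of −0.73 (SE 0.11, adjusted p = 0.00127).

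Of 22 transcription factors of adipogenesis, 4 fell and 3 rose (median −0.11). Whichever replicate was left out, 1 rose, and the falls numbered 2 without replicate 1, 3 without replicate 2 and 4 without replicate 3. Without the replicate block 2 fell and 1 rose. Cebpa, the factor that shares targets with PPARγ in the fat cell, read 6.56, 6.67 and 7.24 under control siRNA and 5.59, 5.19 and 5.47 in the PPARγ KD. It was at least 1.26-fold lower (difference −1.41, SE 0.13, adjusted p = 1.06e-08) and was above background on the control arrays and on none of the others. Ebf2 and Zfp423, which mark cells committed to the fat lineage, differed by −1.65 and −1.37 and were at least 1.75-fold and 1.67-fold lower. Stat5a, a factor activated by hormone receptors, fell by 1.03. In the other direction, the Krüppel-like factor Klf4, an early factor in the differentiation of these cells, rose by 1.61 (SE 0.17, adjusted p = 8.43e-07), although its groups overlap because replicate 3 was low under both siRNAs (8.39, 8.27 and 6.96 against 10.06, 10.15 and 8.22). Klf2, a repressor of adipogenesis, rose by 0.75 and Ddit3 (CHOP), a C/EBP family member that blocks C/EBP binding, by 0.56. Cebpb and Cebpd, the early C/EBP factors, did not pass the test, with differences of 0.06 (SE 0.08) and 0.26 (SE 0.10). Cebpb stood at 12.63 to 12.80 on control arrays and 12.73 to 12.81 on PPARγ KD arrays.

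**Figure D2:**
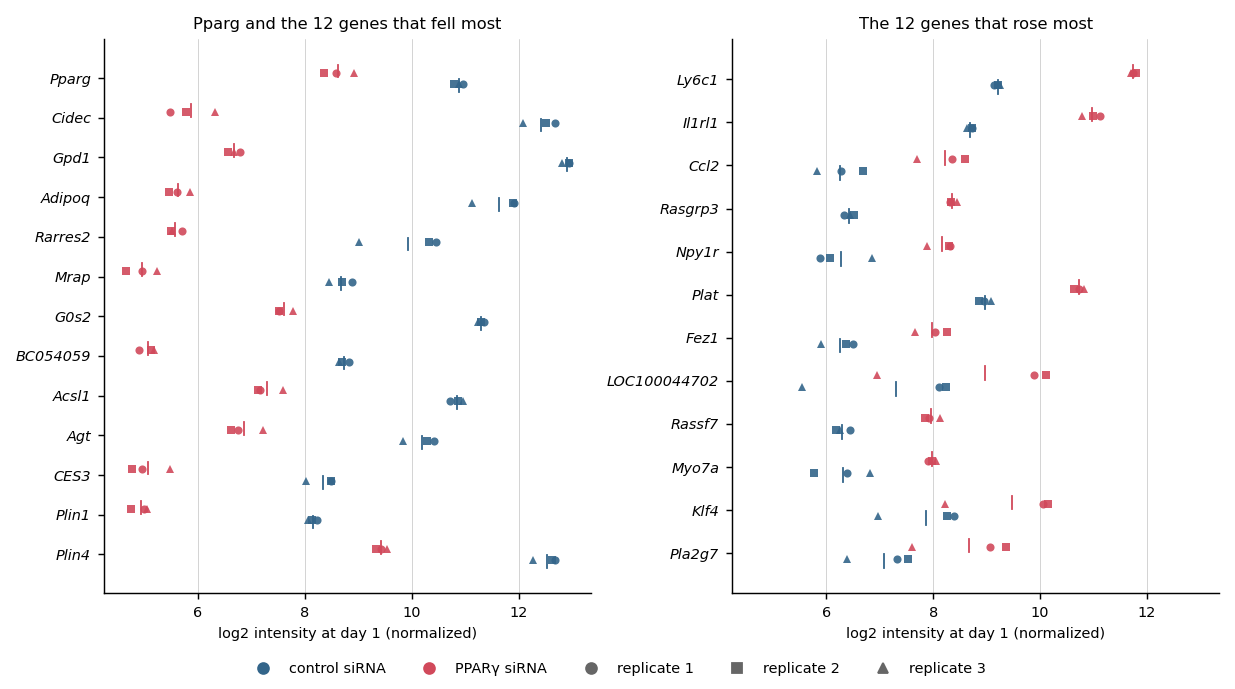
Log2 intensity at day 1 (horizontal axis) on each of the 6 arrays for Pparg (probe 6130632) and the 12 genes with the largest falls (left) and the 12 with the largest rises (right). Blue marks are control siRNA, red marks PPARγ siRNA, the shape gives the replicate and the vertical ticks are group means of 3 arrays; BC054059 is Adig and CES3 is Ces1d. Every gene on the left has groups apart, while Klf4 and LOC100044702 on the right have groups that overlap, with replicate 3 low in both.

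Of 17 lipid droplet genes, 8 fell and none rose, with a median of −0.50. Cidec (Fsp27), which fuses and enlarges lipid droplets, read 12.67, 12.51 and 12.08 under control siRNA and 5.48, 5.78 and 6.32 in the PPARγ KD, and was at least 61.1-fold lower. The difference, −6.56 (SE 0.22, adjusted p = 2.07e-23), was the largest of the array, and no PPARγ KD array was above background. Plin1, the coat protein that guards stored fat, read 8.23, 8.14 and 8.05 against 4.99, 4.74 and 5.05 and was at least 3.15-fold lower. Plin4 (S3-12), a coat of nascent droplets, stayed well above background in both groups, at 12.68, 12.62 and 12.26 against 9.42, 9.34 and 9.53, which is 8.52-fold lower (difference −3.09, SE 0.08, adjusted p = 2.79e-26). Both perilipins therefore had groups far apart on every array, but the size of the fall in Plin1 is bounded by the background. G0s2, the inhibitor of adipose triglyceride lipase, read 11.35, 11.28 and 11.24 against 7.52, 7.51 and 7.77 (12.9-fold lower). Adig (adipogenin, named BC054059 on the array), read 8.83, 8.70 and 8.64 against 4.89, 5.12 and 5.17 and was at least 4.71-fold lower. The remaining 3 falls were in Fitm2 (−2.02), which partitions triglyceride into droplets, Plin2 (−0.79), the coat protein found in most cells, and Bscl2 (−0.66), the seipin gene.

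Called falls were also found in fatty acid uptake and activation and in triglyceride synthesis. Of 19 uptake, binding and activation genes, 5 fell and 1 rose (median −0.36). Acsl1, which activates fatty acids to acyl-CoA, read 10.71, 10.86 and 10.96 under control siRNA and 7.15, 7.13 and 7.59 in the PPARγ KD (11.7-fold lower, SE 0.16 on the log2 scale, adjusted p = 5.88e-19). Lpl, the lipase that frees fatty acids from lipoproteins, fell from 14.55, 14.38 and 14.42 to 12.43, 12.55 and 12.58 (difference −1.93, SE 0.10, adjusted p = 2.3e-16), and its second probe was not called. Fabp5, a fatty acid binding protein, read 9.93, 10.20 and 8.62 against 7.94, 8.04 and 6.80 (difference −1.99), with replicate 3 low in both groups and the groups still apart. Angptl4, a secreted inhibitor of Lpl, fell by 1.95 and Dbi, the acyl-CoA binding protein, by 0.49, while Vldlr, the receptor of very low density lipoprotein, rose by 0.81 on 1 of its 4 probes. Fabp4, a classical fat cell marker, read 8.13, 6.60 and 6.11 under control siRNA and 5.19, 5.17 and 5.38 in the PPARγ KD. The groups did not overlap, but the control arrays spread by about 2 log2 units and the gene did not pass the test (difference −1.70, SE 0.54, adjusted p = 1).

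Of 19 genes of triglyceride synthesis and glyceroneogenesis, 6 fell and none rose (median −0.15). Gpd1, which makes the glycerol 3-phosphate backbone, read 12.94, 12.94 and 12.81 under control siRNA and 6.79, 6.56 and 6.67 in the PPARγ KD (74.7-fold lower), where 2 of the 3 arrays were above background. With a difference of −6.22 (SE 0.14) it had the smallest adjusted p of the array, 1.52e-29. Dgat2, which adds the last acyl chain, read 10.60, 10.46 and 10.23 against 7.90, 7.99 and 8.04 (5.46-fold lower). Gpat3, the acyltransferase of the first step, was at least 4.39-fold lower, and Agpat2 and Dgat1, acyltransferases of later steps, fell by 1.33 and 1.26. The sixth, the glycerol channel Aqp7, passed the test (−1.19, adjusted p = 0.0477) although it was above background on none of the 6 arrays.

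Of the 14 lipolysis genes read, 6 fell and none rose (median −0.37). Pnpla2 (adipose triglyceride lipase) read 12.80, 12.66 and 12.47 under control siRNA and 10.19, 10.03 and 10.34 in the PPARγ KD, 5.49-fold lower. Lipe (hormone-sensitive lipase) read 8.13, 8.19 and 7.84 against 6.11, 5.73 and 5.99 and was at least 2.96-fold lower. Ces1d, a carboxylesterase of the fat cell named CES3 on the array, read 8.49, 8.48 and 8.02 against 4.94, 4.77 and 5.48, at least 3.59-fold lower. Mrap, the accessory protein that carries the corticotropin receptor to the membrane, read 8.89, 8.69 and 8.45 against 4.96, 4.65 and 5.23, at least 4.55-fold lower. In the last 3, no PPARγ KD array was above background. Abhd5, the coactivator of Pnpla2, fell by 1.32, and Pnpla8, a related phospholipase, by 0.76.

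In de novo lipogenesis, 4 of 24 genes fell and none rose, the falls reaching at most 0.77, and the median was −0.14. They were the citrate carrier Slc25a1 (−0.77), the NADPH sources Idh1 (−0.62) and Taldo1 (−0.43), and fatty acid synthase Fasn (−0.49), whose groups overlap. Without replicate 1, and likewise without replicate 2, none of the 24 was called. Scd1, the stearoyl-CoA desaturase, stood at 12.23 to 12.72 on control arrays and 12.08 to 12.42 on PPARγ KD arrays and did not pass the test (−0.25, SE 0.12).

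Of 20 adipokines and secreted proteins, 5 fell and 1 rose (median −0.25), and 10 were above background on none of the 6 arrays. Adipoq (adiponectin) read 11.91, 11.89 and 11.12 under control siRNA and 5.60, 5.45 and 5.85 in the PPARγ KD, at least 35.5-fold lower (difference −6.01, SE 0.23, adjusted p = 2.4e-21). Rarres2 (chemerin, a chemoattractant adipokine) read 10.46, 10.31 and 9.02 against 5.70, 5.49 and 5.52, at least 10.9-fold lower. Agt (angiotensinogen) read 10.42, 10.28 and 9.84 against 6.75, 6.61 and 7.22 (difference −3.32, SE 0.18). Adiponectin and chemerin were thus at background in every PPARγ KD culture, while angiotensinogen stayed above it. Cfd (adipsin), the complement factor D of fat cells, was at least 1.65-fold lower (difference −2.22), and Sncg, the gene of the first element above, fell by 1.21. Lcn2 (lipocalin 2), an iron-siderophore binding protein made in inflammation, went the other way, from 9.35, 9.34 and 9.45 to 10.84, 10.84 and 10.96 (2.83-fold higher, SE 0.14 on the log2 scale, adjusted p = 2.45e-08). Lep (leptin) and Retn (resistin), hormones of the mature fat cell, were above background on none of the 6 arrays.

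Mitochondrial and peroxisomal fuel genes were read as 3 lists. Of 31 genes of fatty acid oxidation, 13 fell and none rose, with a median of −0.44. Differences below 0 were found in 30 of them, against 12343 of all 18750 symbols. Pex11a, a protein of peroxisome division, read 10.75, 10.63 and 10.65 under control siRNA and 8.62, 8.59 and 8.80 in the PPARγ KD (4.02-fold lower). Acadm, the medium-chain acyl-CoA dehydrogenase, read 12.23, 12.39 and 12.21 against 11.04, 10.79 and 11.17 (2.42-fold lower). Pex11g (−0.98) and Ech1 (−0.95) also belong to the 4 of this list with the smallest p, and the other 9 falls ranged from electron carriers (Etfdh, Etfa, Etfb) to the dehydrogenases Acads and Acadvl. The count was 8 without replicate 1, 5 without replicate 2 and 6 without the replicate block.

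Of 22 genes of branched-chain amino acid breakdown, 8 fell and none rose (median −0.47). Below 0 lay 21 of them, against 12343 of all 18750 symbols. Among those with the smallest p were Aldh6a1 (−0.91), Dld (−0.52) and Acat1 (−0.98), enzymes or shared subunits of the later steps. None of the 8 was called without replicate 1 or without replicate 2, and the count was 7 without replicate 3. Of 27 pyruvate and citrate cycle enzymes, 6 fell, none rose and the median was −0.38. Pcx, pyruvate carboxylase, which supplies oxaloacetate for glyceroneogenesis and lipogenesis, read 10.08, 10.03 and 9.58 under control siRNA and 8.41, 8.23 and 8.40 in the PPARγ KD (difference −1.55, SE 0.13, adjusted p = 8.82e-10). It moved more than the other 5, which lay between −0.64 (Mpc2, a mitochondrial pyruvate carrier) and −0.42 (Idh3g, a subunit of isocitrate dehydrogenase). Leaving out replicate 1, 2 or 3 gave counts of 1, 1 and 2.

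Other metabolic groups changed in few members. Of 21 genes of insulin signalling and glucose transport, none fell and Pik3cb, a catalytic subunit of phosphoinositide 3-kinase, rose by 0.76. Slc2a4, the insulin-responsive glucose transporter GLUT4, was above background on 1 control array and on none of the PPARγ KD arrays (difference −1.04, SE 0.23, adjusted p = 1). Of 22 cholesterol genes, Hsd17b7, an enzyme of sterol synthesis, was the only one called (−0.70). Of 24 antioxidant and detoxifying enzymes, 3 fell, namely the microsomal glutathione transferases Mgst1 (−1.27) and Mgst3 (−1.23) and the peroxidase Gpx7 (−0.49), and the epoxide hydrolase Ephx1 rose (0.51). Hsd11b1, which regenerates active glucocorticoid inside the fat cell, read 10.09, 10.17 and 9.77 under control siRNA and 7.75, 7.49 and 7.70 in the PPARγ KD (difference −2.36, SE 0.11, adjusted p = 8.59e-19). It was the 1 fall among 19 glucocorticoid-responsive genes, of which Lcn2 and the phosphatase Dusp1 (0.64) rose, and that list's median was 0.03. Among 18 cAMP-responsive genes Ppargc1a fell and Dusp1 rose (median 0.04).

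**Figure D3:**
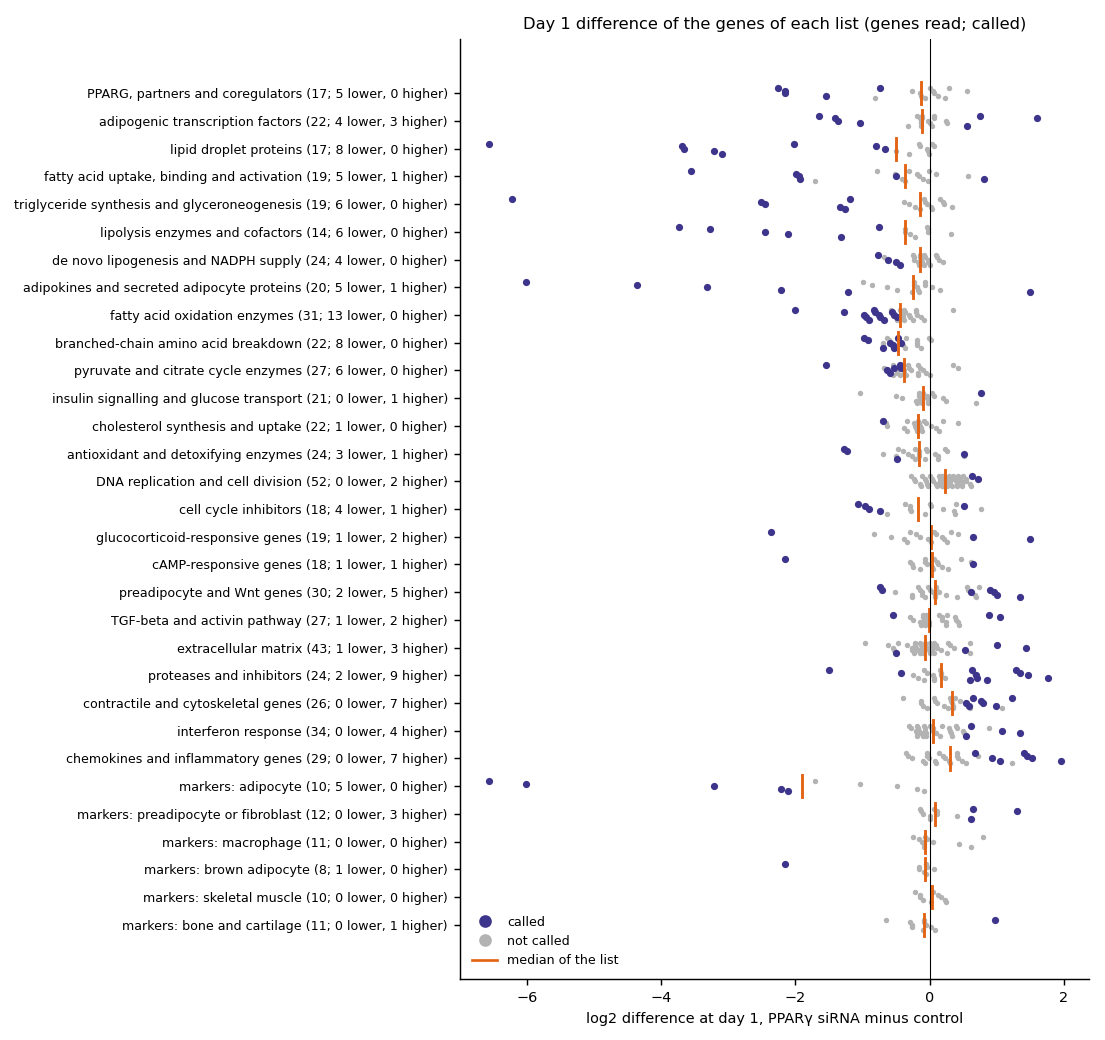
Log2 difference at day 1 (horizontal axis) of the genes of each list, by the brightest probe of each gene. Dark points passed the test, grey points did not, and orange bars are list medians. The labels give the number of genes read and the counts called lower and higher. The lipid droplet, triglyceride synthesis and lipolysis lists have called genes left of 0 only, with tails that reach −6.56, −6.22 and −3.73, while the contractile, interferon and chemokine lists have called genes right of 0 only.

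The genes that rose most were a mixture of surface, signalling and secreted proteins. Ly6c1, a GPI-anchored surface protein of the Ly6 family, read 9.14, 9.22 and 9.25 under control siRNA and 11.74, 11.79 and 11.70 in the PPARγ KD (5.81-fold higher, SE 0.11 on the log2 scale, adjusted p = 8.49e-19). Its paralog Ly6c2 is nearly identical, and which of them the probe reads could not be told without its sequence. Il1rl1, the receptor of interleukin-33, read 8.63 to 8.72 against 10.79 to 11.13 (4.86-fold higher). Plat, tissue plasminogen activator, read 8.95, 8.87 and 9.07 against 10.73, 10.64 and 10.81 (difference 1.76). These 3 were well above background in both groups and differed by far more than the spread between replicates. Rasgrp3, an exchange factor of Ras and Rap, read 6.32, 6.52 and 6.45 against 8.32, 8.32 and 8.44, and Npy1r, the neuropeptide Y receptor Y1, 5.89, 6.06 and 6.85 against 8.31, 8.29 and 7.89. Fez1, an adaptor of axonal transport, Rassf7, a Ras-association domain protein, and Myo7a, an unconventional myosin, rose by 1.73, 1.67 and 1.65. Ccl2, Rasgrp3, Npy1r, Fez1, Rassf7 and Myo7a were above background on 1 of the 3 control arrays, so that the size of their rise rests partly on dim signals. Pla2g7, the secreted phospholipase that degrades platelet-activating factor, rose by 1.59 and LOC100044702, a probe without a named gene, by 1.68, both with replicate 3 low under both siRNAs. The 12 genes with the largest falls kept their call under every setting tried. Of the 12 with the largest rises 5 did not: Ccl2 and Klf4 lost it without the replicate block, Npy1r without replicate 1 or without replicate 2, Pla2g7 without the block or without replicate 1, and LOC100044702 in these and without background correction.

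Rises were also counted by list. Of 29 chemokines and inflammatory genes, 7 rose, none fell and the median was 0.31. Ccl2, the monocyte chemoattractant MCP-1, read 6.27, 6.69 and 5.82 under control siRNA and 8.36, 8.59 and 7.69 in the PPARγ KD (difference 1.96, SE 0.20, adjusted p = 2.05e-07). Ccl7, its neighbour in the chemokine cluster and in function, read 10.66, 10.54 and 10.78 against 12.15, 12.25 and 12.13 (difference 1.52, SE 0.10, adjusted p = 2.49e-13). Cxcl1, a neutrophil attractant, read 9.19, 9.21 and 9.55 against 10.86, 10.75 and 10.68 (difference 1.45). All 3 chemokines were higher on each PPARγ KD array than on any control array. Ccl9 rose by 1.40 and Csf1, the growth factor of macrophages, by 1.05, and Ptgs1 (0.93) and Nfkb2 (0.68) were called with overlapping groups. Of 34 interferon response genes, 4 rose and none fell (median 0.06): the tethering factor Bst2 (1.35), the transcription factors Irf9 (1.08) and Irf1 (0.55), and the membrane protein Ifitm3 (0.62). Leaving out replicate 1, 2 or 3 gave 1, 0 and 2 calls, and the median was −0.02 without replicate 1.

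Of 24 proteases and protease inhibitors, 9 rose and 2 fell, with a median of 0.18. Without replicate 1, and likewise without replicate 2, 5 rose and none fell, and with only the arrays of the days compared 5 rose and 1 fell. Mmp3 (stromelysin) read 7.11, 6.93 and 7.21 under control siRNA and 8.49 to 8.60 in the PPARγ KD (difference 1.46, SE 0.12, adjusted p = 1.18e-09). Timp3, an inhibitor of metalloproteinases held in the matrix, read 8.39, 8.40 and 8.45 against 9.87, 9.77 and 9.65 (difference 1.35), on 1 of its 2 probes. Timp1 rose by 0.69 and Timp2 by 0.63, and the further rises were in Plat, Mmp9, Adamts2, the urokinase gene Plau and Serpine2. Timp4 went the other way, at 7.64, 7.89 and 7.29 against 5.78, 5.84 and 6.72 (difference −1.49), as did Mmp2 by a small amount (−0.43). The inhibitor family was therefore not of 1 direction: 3 rose and 1 fell.

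Of 26 contractile and cytoskeletal genes, 7 rose and none fell (median 0.34). Actg2, smooth muscle γ-actin, read 10.61, 10.58 and 11.24 under control siRNA and 12.05, 11.98 and 12.06 in the PPARγ KD (difference 1.22, SE 0.11, adjusted p = 1.68e-08). Cnn2 (0.99), an actin-binding calponin, Tpm1 (0.77) and Tpm2 (0.54), tropomyosins, had the next smallest p, and Myl9, Zyx and Thy1 were the other 3. The count was 3 without replicate 1, 3 without replicate 2 and 3 without the replicate block. Of 43 extracellular matrix genes, 3 rose, namely Dpt (dermatopontin, 1.44), Fn1 (fibronectin, 1.01) and Fbln2 (0.53), and Thbs2 fell (−0.50), with a median of −0.07 that was 0.03 without replicate 1. Of 27 TGF-β and activin genes, Ltbp1 (1.05 on 1 of its 6 probes) and Grem1 (0.89) rose and Tgfb2 fell (−0.54).

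Of 30 preadipocyte and Wnt genes, 5 rose and 2 fell (median 0.09). Without replicate 1, 2 rose and none fell, without replicate 2, 2 rose and 1 fell, and without replicate 3, 3 rose and 1 fell. Wnt6, a Wnt ligand that inhibits adipogenesis, read 6.57, 6.60 and 6.92 under control siRNA and 8.04, 7.73 and 8.37 in the PPARγ KD (difference 1.35, SE 0.10, adjusted p = 2.96e-11). The matricellular proteins Ccn5 (WISP2) and Ccn4 (WISP1) rose by 1.01 and 0.89, the Wnt modulator Sfrp2 by 0.96 with overlapping groups, and Dlk1 (Pref-1), which keeps preadipocytes undifferentiated, by 0.62. The receptor Fzd5 fell by 0.73. Lef1, a nuclear effector of Wnt signalling, was also called (−0.70), with overlapping groups and no array above background.

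Of 52 genes of DNA replication and cell division, 2 rose, Ccnd1 (cyclin D1) and the kinesin Kif23, and none fell. Differences above 0 were found in 42 of them, against 6407 of all 18750 symbols. Above background on at least 3 of the 6 arrays were 47 of the 52, against 7779 of all symbols, so these shares do not compare like genes. The median of the 52 was 0.24, and 15 were higher with the Benjamini-Hochberg adjustment. Leaving out replicate 1, 2 or 3 gave 1, 0 and 1 rises. Ccnd1 read 13.68, 13.54 and 13.72 under control siRNA and 14.31, 14.31 and 14.22 in the PPARγ KD (difference 0.63, SE 0.07, adjusted p = 5.06e-07), and all 4 of its probes were called. Kif23 rose by 0.72 with overlapping groups. The median of the same 52 genes was 0.61 on day 0 and −0.08 on day 2. Of 18 cell cycle inhibitors, 4 fell, namely the antiproliferative genes Tob1 (−0.91), Btg1 (−0.97) and Gadd45g (−1.07) and the retinoblastoma gene Rb1 (−0.74), and Cdkn2b rose (0.51, groups overlapping). Without replicate 1, and likewise without replicate 2, 2 fell and none rose.

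Markers of the cell types a culture could hold were read beside these changes. All of 10 fat cell markers were below 0, against 12343 of all 18750 symbols. Of the 10 markers, 5 fell (Cidec, Adipoq, Plin1, Lipe and Cfd) and 3 were above background on none of the 6 arrays. Their summed intensity was 7466 to 11546 on the control arrays and 363 to 472 on the PPARγ KD arrays. Of 12 markers of preadipocytes or fibroblasts, 3 rose (Ly6a, the Sca-1 antigen, by 1.31, Dlk1 and Thy1), none fell, and the summed intensity was 114482 to 117220 against 127187 to 135906. The count of rises was 1 without replicate 1, 1 without replicate 2, 2 without replicate 3 and 1 with the replicate block by day, and Thy1 lost its call without replicate 1 or 2 and Dlk1 whichever replicate was left out. The labelled cell type is a preadipocyte on its way to a fat cell. Above background on at least 3 of the 6 arrays were 11 of the 12 preadipocyte or fibroblast markers and 5 of the 10 fat cell markers. Lep, Retn and Pck1 were above background on none of the arrays. Macrophage markers gave no call among 11 genes, 8 of them at background on every array, with sums of 401 to 570 against 514 to 568. Among brown fat markers only Ppargc1a was called, and the other 7 of 8 were at background on every array. No skeletal muscle marker of 10 was called and 9 were at background. Among 11 bone and cartilage markers Spp1 (osteopontin) rose by 0.98 with overlapping groups, and 7 were at background. The part of the shift in fat cell and preadipocyte markers in the other differences was not tested.

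The time course shows when these differences appeared. The difference of Pparg was −2.41 on day −2, −2.19 on day 0, −2.26 on day 1 and −1.93 on day 2, and control cells held 10.09 to 11.56 over these days. Among the genes that fell at day 1, control cells raised Cidec from a mean of 4.97 on day −2 to 8.30 on day 0, 12.42 on day 1 and 14.63 on day 2. The PPARγ KD cells went from 5.01 to 5.32, 5.86 and 9.48. Gpd1 rose in control cells from 9.32 on day 0 to 12.89 on day 1 and stayed at 6.70 and 6.67 in the PPARγ KD. Mrap and Plin1 stood at 5.41 and 6.01 on day 0 in control cells and at 8.68 and 8.14 on day 1, and at 5.20 and 4.95 (Mrap) and 5.08 and 4.93 (Plin1) in the PPARγ KD. On day 0 neither gene was above background on any array. Other patterns were seen among the rises. Ly6c1 dropped in control cells from 11.99 on day −2 to 9.06 on day 0 and 9.21 on day 1. In the PPARγ KD it went from 12.64 to 11.53 and 11.74. Rasgrp3 likewise stood at 6.77 and 6.43 in control cells on days 0 and 1 after 8.68 on day −2. In the PPARγ KD it stood at 8.29 and 8.36 after 8.56.

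**Figure D4:**
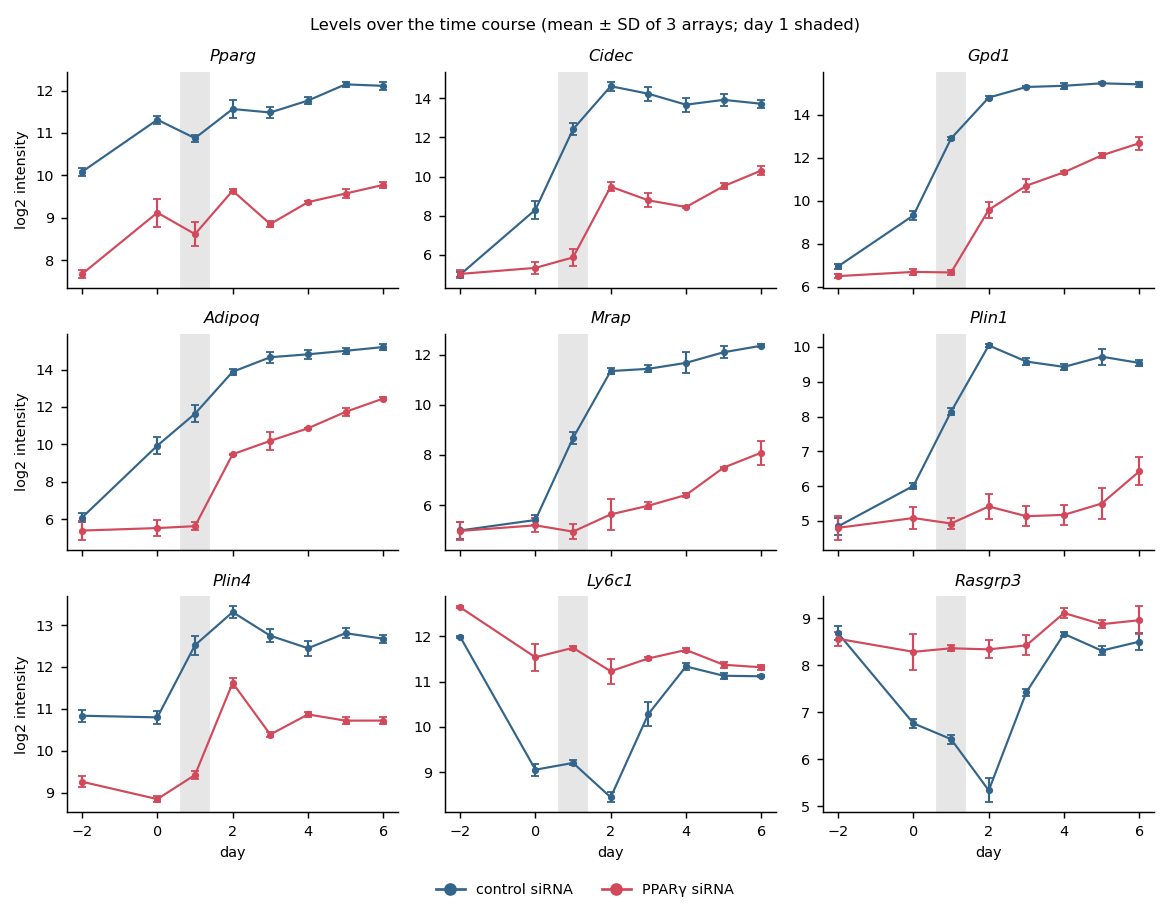
Mean log2 intensity (vertical axis, ± SD of 3 arrays) of Pparg, 6 genes that fell and 2 that rose at day 1, by day (horizontal axis, day 1 shaded), under control siRNA (blue) and PPARγ siRNA (red). Cidec, Gpd1, Mrap and Plin1 rise between day 0 and day 1 in control cells and not or hardly in the PPARγ siRNA cells, while Ly6c1 and Rasgrp3 drop by day 0 in control cells and less in the PPARγ siRNA cells.

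Calls at neighbouring days were counted in the same fit, on arrays that the days do not share. On day −2, 212 probes were called (0.861%), on day 0, 747 (3.03%) and on day 2, 2195 (8.92%). Of the 716 probes called at day 1, 81 were also called on day −2, 311 on day 0 (43.4% of the day 1 probes and 41.6% of the day 0 probes) and 533 on day 2 (74.4% of the day 1 and 24.3% of the day 2 probes). The sign was the same in 75, 310 and 530 of them. At day 1, 378 probes were called that had not been called on day −2 or day 0. Of the lower probes 167 were called on every day from 1 to 6 and 32 on day 1 alone, and of the higher probes 26 and 27. The falls of Cidec, Adipoq and Gpd1 belong to differences that were already there on day 0, at −2.98, −4.40 and −2.63.

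Whether the effect itself changed between days was tested as an interaction. Between day 0 and day 1 it differed for 121 probes, becoming more negative in 55 (0.223% of all probes) and more positive in 66 (0.268%). The 5 genes with the largest negative change were Gpd1 (−3.60, SE 0.20, adjusted p = 8.42e-16), Cidec (−3.59), Mrap (−3.52), Adig (−3.04) and Plin1 (−2.29). Mrap differed by −0.21 on day 0 and −3.73 on day 1, and Adig by −0.62 and −3.66. On day 0 no array of either siRNA was above background for Mrap, Adig or Plin1, so their day 0 differences rest on background signal. At day 1 these genes were above background on all 3 control arrays. A difference below background on day 0 could not be seen. Adipoq and Rarres2, already lower on day 0, did not pass this test (−1.60 with SE 0.32, and −0.95 with SE 0.31). In the positive direction the largest were Angpt2, an antagonist of the Tie receptor of vessels, which went from −1.40 on day 0 to 0.86 on day 1, Fhdc1, an actin-related formin, from −1.99 to 0.12, and the collagen gene Col8a1, from −2.07 to −0.47. Mmp11 (stromelysin 3) went from −0.78 to 0.66 and the protease inhibitor Serpina3g from −0.18 to 1.26. The first 4 of these went down in control cells between the days (Angpt2 dropped by 3.24), while Serpina3g rose in the PPARγ KD cells by 1.58.

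**Figure D5:**
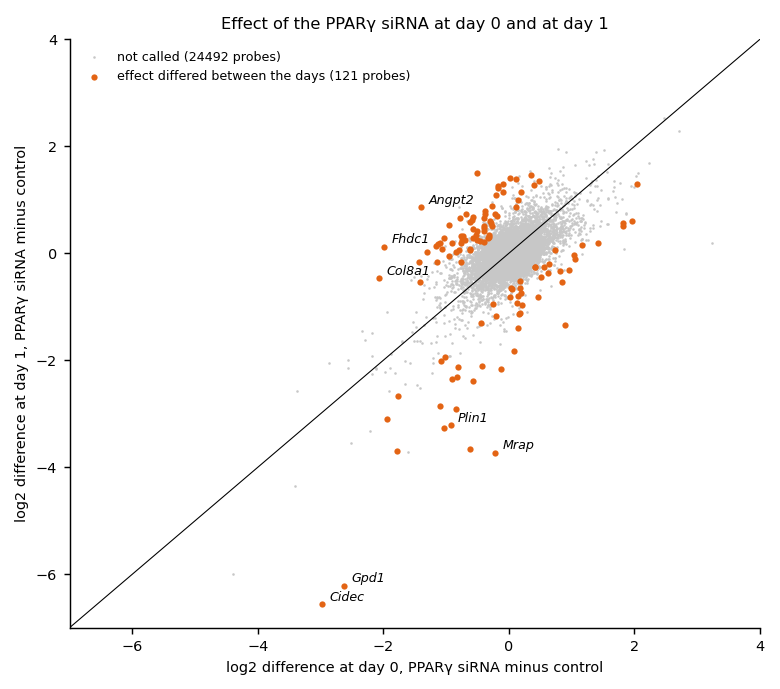
Log2 difference (PPARγ siRNA minus control) at day 1 (vertical axis) against that at day 0 (horizontal axis) for each probe, with the line of equal effect. Orange points are the 121 probes whose effect differed between the days. Gpd1, Cidec, Mrap and Plin1 lie below the line, and Angpt2, Fhdc1 and Col8a1 above it.

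Between day 1 and day 2 the effect differed for 512 probes, 228 more negative (0.926%) and 284 more positive (1.15%) on day 2. Large negative changes were in Ppp1r1a, an inhibitor of protein phosphatase 1 (−1.50 on day 1 and −4.86 on day 2), the short-chain fatty acid receptor Ffar2 (−0.92 and −4.16), and Thrsp, the lipogenic factor Spot 14 (−0.68 and −3.70). Another was in Ccdc85b (0.57 and −1.97), and of these 4 genes Ppp1r1a alone was called at day 1. At day 1 Thrsp was above background on no array. The largest positive changes were in BC064033 (−0.13 on day 1 and 2.31 on day 2), Omd, the matrix protein osteomodulin (0.24 and 2.01), Wfdc3 (0.06 and 1.96), Itgbl1 (0.02 and 1.75) and Krt13 (−0.22 and 1.64). Of the leading genes of day 1, Mrap, Adig, Ces1d and Plin1 had a more negative difference on day 2, whereas that of Plin4 went from −3.09 back to −1.69. In the first 4 the control means rose between the days, for Mrap from 8.68 to 11.34 and for Plin1 from 8.14 to 10.04. None of these 4 was above background on any PPARγ KD array of either day.

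The study listed genes near binding regions of PPARγ and RXR, chosen among genes that changed in these same samples, so that their direction here is not independent evidence. A heterosite is a place where regions of both receptors lay close together. In its search for targets the study also took PPARγ regions below its calling threshold where an RXR region lay near. Among genes near a heterosite, 72 of the 74 listed were read, 38 fell and 1 rose. Their median at day 1 was −0.59, against −0.32 on day 0 and −0.98 on day 2. Among 191 genes of the 198 listed near a monosite, where a region was called for one receptor and none for the other close by, 45 fell, 16 rose and the median was −0.28. The 1 heterosite gene that rose was Ccl9, and those that fell with the smallest p were Gpd1, Cidec, Adipoq and G0s2. Of the 7 genes beside which the study cloned a binding region, 6 fell at day 1. Pim3, whose element is given above, read 13.09, 13.09 and 12.63 under control siRNA and 11.64, 11.82 and 11.38 in the PPARγ KD (difference −1.32, SE 0.08, adjusted p = 1.23e-14). Sncg read 8.05, 7.94 and 7.78 against 6.76, 6.61 and 6.78 (difference −1.21, SE 0.18, adjusted p = 0.00154). In both the lowest control array lay above the highest PPARγ KD array. Gpd1, Plin1, Pcx and Mgst1 are the other 4, with the values given above. Cops7b, a subunit of the COP9 signalosome, was not called on either of its probes (−0.05, SE 0.08, and 0.19, SE 0.12).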

How the data were processed

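RNA of 48 cultures was hybridised to Illumina MouseRef-8 BeadChips. The authors deposited, as mean bead intensity per probe from BeadStudio 3.3.7, values without normalization, with a deposited detection score, a fraction whose distance from 1 is the detection p-value, and the bead count of each probe. Rank-invariant normalization and batch removal, which the methods name, are not in these values.

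Background was corrected with normexp using the detection p-values (offset 16, limma 3.58.1, R 4.3.3). Scaling used probes that kept their rank and whose mean signal lay between percentiles 50 and 90 (day 1 factors 0.882 to 1.41), and log2 values were fitted with lmFit and eBayes, with a mean per siRNA and day, the replicate number as a block and 30 residual degrees of freedom. P-values were adjusted by Bonferroni over 24613 probes. The samples were taken as pairs by these numbers. Same-number deviations from the group means correlated at 0.740, 0.787 and 0.887 at day 1. Control replicate 1 and PPARγ KD replicate 2 gave 0.801, and control replicate 2 and PPARγ KD replicate 1 gave 0.758. With replicate 3 apart in both groups, deviations from a group mean correlate positively among replicates 1 and 2 however these are matched. The values therefore set replicate 3 apart but cannot show whether replicates 1 and 2 are paired by number.

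Symbols came from the array's 18991 target names, updated through RefSeq's gene table (18343 probes matched by symbol, 4361 by synonym, 1909 not matched). A gene in a list was read by its brightest probe. Named genes were Pparg, the 12 largest called changes in each direction above background on all arrays of the brighter group, up to 4 called members with the smallest p per list, and 5 per direction for each interaction. Further called members, and genes given as not passing the test, were added after their values were seen. Some genes that the rule names are not reported here. The comparison, gene lists and rules were chosen with earlier results of these data known.

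The fit was tested on simulated data of 24613 probes for the day 1 effect: it recovered 30 of 100 probes at 1.5-fold, 43 of 50 at 2-fold and 50 of 50 at 4-fold, with 0 false calls. The simulated noise was normal and independent between arrays, with the residual spread of each probe, as the fit assumes. The rate of false calls on the real arrays is not given by it. The number of arrays and the dimness of probes limit the precision. Results were recomputed with quantile normalization, without background correction, with an offset of 50, other blocks, an ordinary linear model, other samples, the Benjamini-Hochberg adjustment and a filter on dim probes. pandas 2.3.3 and matplotlib 3.10.9 were used for tables and figures. The BeadChip of each array was not given in the sources used here, and no block was set for it.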

Additional observations from a re-analysis of the deposited data

Results flagged for a closer look

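The effect of the PPARγ siRNA differed between neighbouring days for 121 probes from day 0 to day 1 and for 512 probes from day 1 to day 2, by the interaction test in limma with Bonferroni correction. Among the 24 leading genes of day 1, the log2 effect became more negative from day 0 to day 1 by −3.60 for Gpd1, −3.59 for Cidec, −3.52 for Mrap, −3.04 for Adig (BC054059), −2.29 for Plin1, −2.23 for Ces1d (CES3), −1.91 for G0s2 and −1.14 for Plin4.

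From day 1 to day 2 it became more negative still for Mrap (−1.98), Adig (−1.87), Ces1d (−1.72) and Plin1 (−1.41). It moved the other way for Plin4 (1.41), Rasgrp3 (1.07) and Plat (0.87), which for Rasgrp3 and Plat means a larger rise and for Plin4 a smaller fall. In the PPARγ KD, Mrap, Adig, Ces1d and Plin1 were above background on none of the 3 arrays of day 1, so the values of these genes above rest on background signal on that side. On day 0 no array of either siRNA was above background for these genes, so their changes from day 0 rest on background signal there too. By the bound on the fold, their day 1 falls were at least 4.55-fold, 4.71-fold, 3.59-fold and 3.15-fold, in that order.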

How the results depend on the processing

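The difference of Pparg was called under every setting tried, between −2.41 (without replicate 3) and −1.98 (no background correction), and no called result changed sign. The counts of calls moved by more than 1.5-fold with the block, the samples and the adjustment, for which the cause was not tested. Lower and higher probes at day 1, the day 1 to day 0 difference and the day 2 to day 1 difference numbered 366, 350, 121 and 512. Without the replicate block they were 180, 161, 42 and 173, with the replicate block by day 238, 207, 59 and 221, with only the arrays of the days compared 224, 214, 19 and 114, and with the Benjamini-Hochberg adjustment 1248, 1310, 621 and 2629. Leaving out each replicate gave 128 to 302, 126 to 253, 24 to 111 and 61 to 351, the low ends without replicate 1 or 2. Of 106 results for named genes, 37 lost their call without replicate 1, 37 without replicate 2, 13 without replicate 3, 29 without the replicate block, 18 with the block by day and 28 with only the arrays of the days compared. Under quantile normalization 3 did, with an offset of 50 4, and without background correction 6. Among these, Dlk1, Dusp1, Ephx1, Fasn, Gpx7, Idh3a, Irf1, Kif23, Taldo1 and Thbs2 lost it whichever replicate was left out. Acat1, Aldh6a1, Bst2, Btg1, Ccn5, Dld, Fbln2, Fzd5, Grem1, Hsd17b7, Idh1, Irf9, Mpc2, Npy1r, Pik3cb, Rb1, Slc25a1, Spp1, Stat5a, Tgfb2, Thy1, Timp1 and Tpm2 lost it without replicate 1 and without replicate 2. Pla2g7 and LOC100044702 did without replicate 1 only, Ccnd1 without replicate 2 only, Tpm1 without replicate 3 only, and Ifitm3 without replicate 2 or 3. Ccl2, Cnn2, Dpt, Fabp5, Klf4 and Ltbp1 kept it in these but not without the replicate block. Probes at background bound the falls of the fat cell genes, and fewer arrays leave fewer residual degrees of freedom.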
